A study of Mus musculus with 8 samples.

Results

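Broad KDM4B domains are the KDM4B peaks of wild-type cells that span 3000 bp or more. They were chosen by peak width alone, and 603 of the 32017 peaks in that list qualified. KDM4B is an enzyme that takes methyl groups off lysine 9 of histone H3. The trimethylated state of this lysine, H3K9me3, is found on silent chromatin. The peak lists come from chromatin immunoprecipitation sequencing (ChIP-seq) of primary mesenchymal stem cells from mouse bone marrow after 4 hours of osteogenic induction. These are marrow cells that can give rise to bone, cartilage and fat. Knockout (KO) cells came from Prx1Cre; Kdm4bf/f mice and wild-type (WT) cells from Prx1Cre; Kdm4bw/w mice, so both genotypes carry the Cre transgene and differ in the floxed Kdm4b allele. The Prx1 promoter is known as a driver of limb mesenchyme, so deletion is limited to cells in which it has been active.

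The lists used are KDM4B in WT, H3K9me3 in KO and H3K9me3 in WT, with 1 library each. KDM4B in KO and total H3 in both genotypes served as background. With no replicate there is no test of genotype, and every interval given here is a 95% exact interval that covers counting error only. Sequencing depth is unknown for the KDM4B and H3K9me3 lists. The H3K9me3 lists differ in length, with 55306 peaks in KO and 943 in WT, and depth, threshold and genotype cannot be told apart as sources of that difference. Peak lists hold no expression values, so the cell type label was not set against marker genes. Positions are in mouse build mm9, and domains are given by coordinates, since a gene table of mm9 was not used here.

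Domains in which a chromatin protein is called without a break over several kilobases are a known feature of strongly occupied loci, while most transcription factors and many histone enzymes are called as narrow peaks. For a demethylase, such a domain is a stretch where its substrate mark can be counted several times along the same interval. H3K9me3 was measured in other libraries than those that set the width. The number of its peaks in a domain still depends on the domain's length, so numbers per kb are given beside each count of domains.

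The broad domains made up 1.88% of the KDM4B peaks and 12.5% of the sequence they cover, 3.01 of 24.2 Mb. Their median width was 4031 bp, with an interquartile range of 3392 to 5538 bp, against a median of 500 bp for the 31414 narrower peaks. By width, 294 domains spanned 3 kb to under 4 kb, 118 from there to under 5 kb, 162 from there to under 10 kb, and 29 at least 10 kb. The width limit cuts through a continuous distribution. The narrowest domains were 3001, 3003, 3007, 3010 and 3013 bp wide, and the widest peaks left out were 2995, 2995, 2993, 2992 and 2989 bp wide. H3K9me3 peaks of KO cells overlapping these numbered 2, 3, 0, 3 and 1 just inside the limit, and 2, 1, 2, 0 and 0 just outside it.

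The KDM4B list of KO cells holds 35 peaks over 0.0168 Mb, and the total H3 lists hold 28 peaks in KO and 38 in WT. None of the 603 domains overlapped a KDM4B peak of KO cells, for which counting error alone leaves shares below 0.498% possible. The share over all 32017 KDM4B peaks was likewise 0%. No domain overlapped a total H3 peak either, and again the share over all KDM4B peaks was 0% for both H3 lists. Lists this short leave little room for overlap, so these counts say nothing particular about the domains. The closest KDM4B peak of KO cells lay 350.0 kb from a domain, and the closest H3 peak 28.4 kb away in KO and 1420 kb away in WT.

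The domains lay on each of the 19 autosomes and on the X chromosome, and the 3 KDM4B peaks of the Y chromosome were narrower. Chromosome 11 held the most, with 72, followed by chromosome 10 with 47 and chromosome 7 with 44. As a share of a chromosome's KDM4B peaks they ranged from 0.905% on chromosome 16 to 2.86% on chromosome 19. The X chromosome held 8 domains, or 1.75% of its 458 KDM4B peaks, which lies inside the autosomal range.

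Broad domains were unevenly spaced. The median gap between neighbours on a chromosome was 834 kb, while the mean was 3910 kb and the longest gap 52743 kb. Gaps under 10 kb made up 17.3% of the 583 gaps and gaps under 50 kb made up 26.2%. For the 996 KDM4B peaks of 2 kb to under 3 kb, which are more numerous, the corresponding shares were 10.9% and 21.1%. Short gaps were thus a larger share among the broad domains than in the next narrower class. By number alone, the class with more members would have been packed more closely. Of the 101 gaps under 10 kb between broad domains, however, 48 were breaks of less than 1 kb. Whether such breaks split 1 wide signal was not tested, so the short gaps may not all be distances between separate loci.

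**Figure D1:**
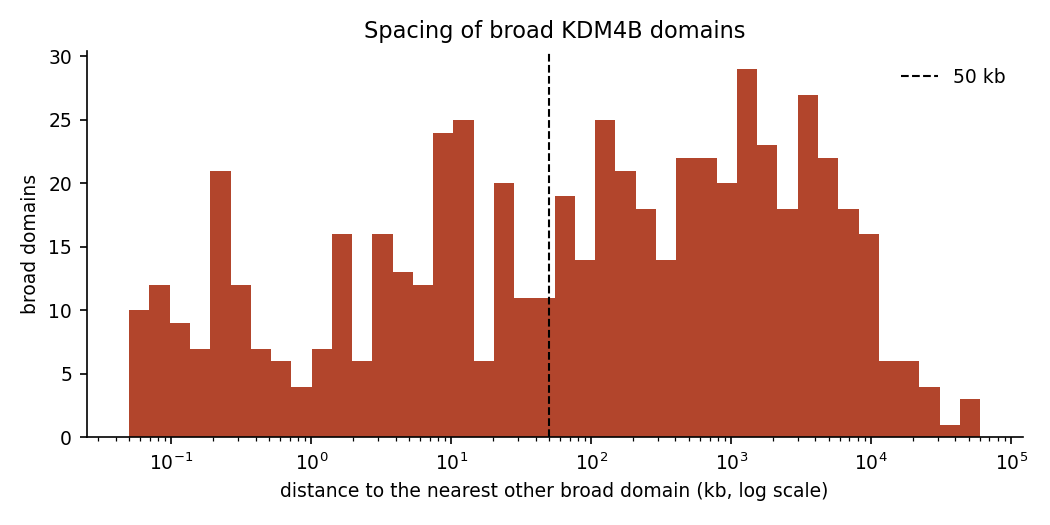
Distance from each broad KDM4B domain to the nearest other one on its chromosome, in kb on a log axis, with the number of domains on the vertical axis. The dashed line marks 50 kb, and the 252 domains left of it form the 99 clusters described in the text.

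Joining domains less than 50 kb apart gave 99 clusters that held 252 domains, or 41.8%, and left 351 domains alone. Pairs were the most common, with 69, and 1 cluster held 8 domains. In 48 cases neighbouring domains were separated by less than 1 kb, with a median break of 202 bp, and an H3K9me3 peak of KO cells reached into 3 of these breaks. Clustered domains were somewhat wider, with a median of 4379 bp, against 3837 bp for domains alone.

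Broad domains had more KDM4B peaks around them than narrower peaks had. Counting only neighbours under 3 kb wide, a broad domain had a median of 4 within 10 kb, against 3 for peaks of 2 kb to under 3 kb and 2 in each narrower class. A KDM4B peak of any width lay within 1 kb of 81.3% of broad domains, against 68.9% of peaks of 2 kb to under 3 kb and 46.6 to 54.4% in the narrower classes. Because the width rule and this count come from the same list, these values describe how the caller broke up the signal as well as where it lies.

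H3K9me3 peaks of KO cells overlapped 418 of the 603 broad domains, or 69.3% (65.5 to 73.0%), by at least 1 bp. Over all 32017 KDM4B peaks the share was 22.8%, and over the narrower peaks it was 21.9% (21.4 to 22.3%). The domains carried 980 overlapping H3K9me3 peaks in all, and 935 of those were centred inside a domain. No such peak was found in 185 domains, exactly 1 in 143, exactly 2 in 128, and 3 or 4 in 69 and 43 domains. The highest numbers were 11 and 10, each in a single domain.

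A wide interval meets more peaks by its length, so the number per kb was compared. Per kb of KDM4B sequence there were 0.310 midpoints of KO H3K9me3 peaks in broad domains (0.291 to 0.331) and 0.298 in narrower peaks (0.291 to 0.305). The ratio of these values was 1.04, with an interval of 0.972 to 1.12 that includes equality. H3K9me3 peaks covered 10.9% of the broad domain sequence and 10.3% of the narrower peaks. Across width classes the number per kb was 0.241 under 500 bp, 0.309 from 500 bp, 0.325 from 1 kb, 0.322 from 2 kb and 0.310 from 3 kb. The classes from 500 bp upward had overlapping intervals, and the narrowest class lay below them.

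At equal length the share was not highest in the broad domains. In the central 500 bp, 154 of 603 broad domains had an H3K9me3 peak of KO cells, or 25.5% (22.1 to 29.2%). The share was 22.0% (21.2 to 22.8%) for peaks of 500 bp to under 1 kb, 28.5% (27.2 to 29.8%) from 1 kb and 29.7% (26.9 to 32.7%) from 2 kb. The broad domains therefore lay between these classes, with an interval that overlaps each of them.

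**Figure D2:**
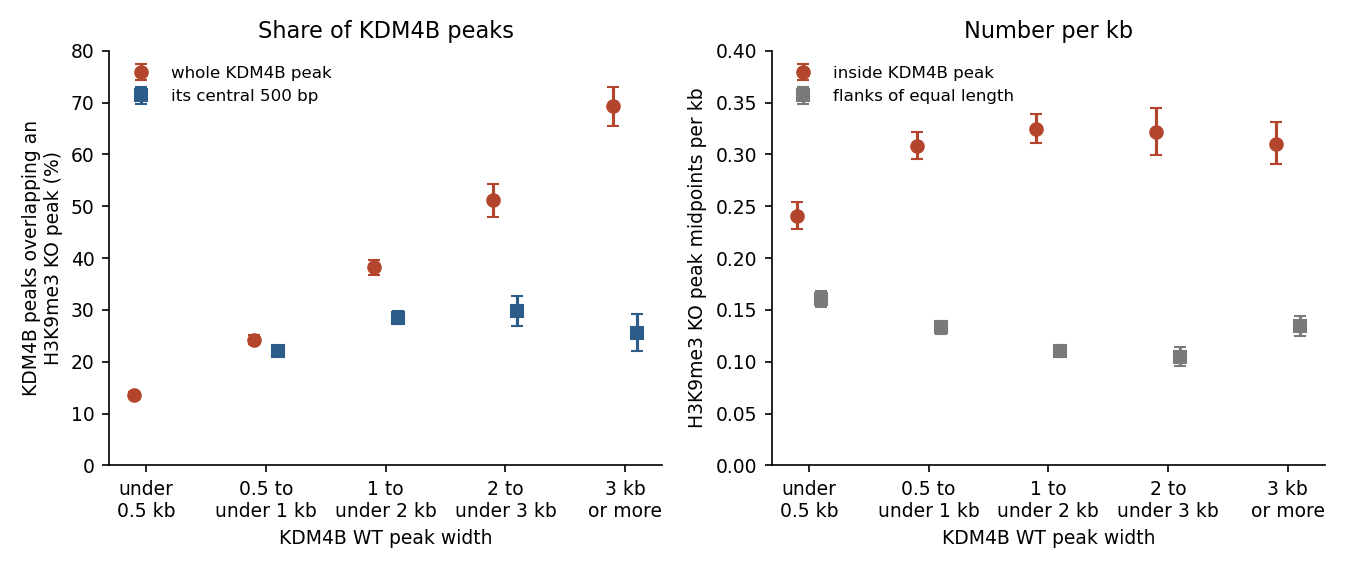
H3K9me3 KO peaks in KDM4B peaks by width class, with 95% exact intervals. Left, the share of KDM4B peaks with an overlap climbs to 69.3% at 3 kb or more for whole peaks (circles), but not for their central 500 bp (squares); right, midpoints per kb inside the peaks (circles) stay near 0.31 from 500 bp upward and lie above the flanks of equal length (squares).

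Within the broad domains the number per kb was lowest in the widest. Domains of 3 kb to under 4 kb had 0.339 (0.303 to 0.376), those of 4 kb to under 5 kb 0.339 (0.291 to 0.393), those of 5 kb to under 10 kb 0.305 (0.272 to 0.340), and the 29 of at least 10 kb 0.222 (0.179 to 0.272). The interval of the widest class does not reach those of the first pair of classes. H3K9me3 peaks covered 12.3, 12.6, 10.2 and 7.24% of the sequence in these classes, again least in the widest. The 29 widest domains nevertheless overlapped H3K9me3 most often as intervals, in 25 cases.

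**Figure D3:**
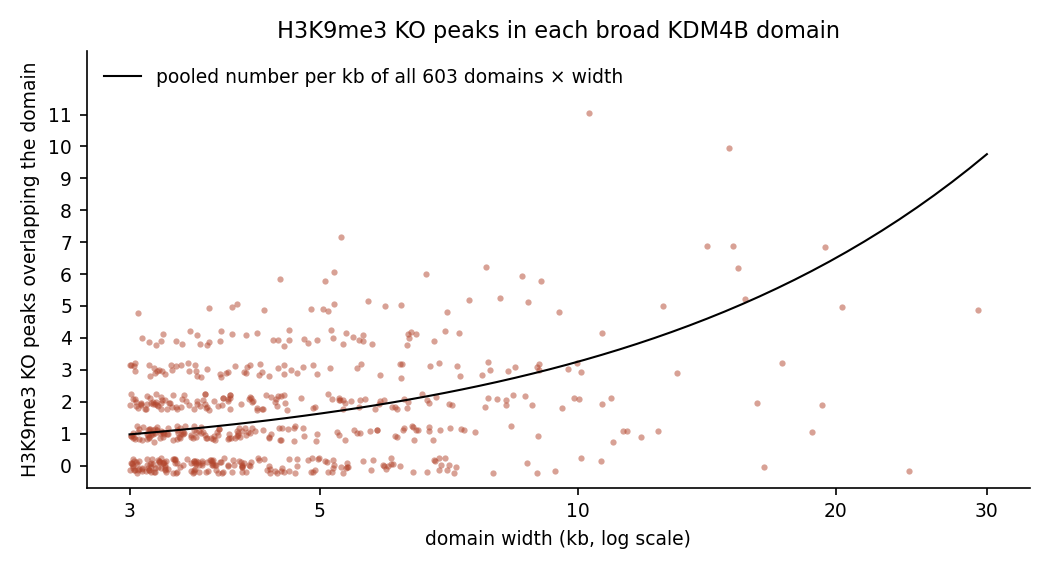
Number of H3K9me3 KO peaks overlapping each of the 603 broad domains (points, with a small vertical scatter to separate them) against domain width in kb on a log axis. The line is the pooled number per kb multiplied by width; 21 of the 29 domains of at least 10 kb lie under it, and the points at 11 and 10 peaks lie above it.

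H3K9me3 of KO cells was denser inside the domains than beside them. Flanks of the same length on either side had 0.134 midpoints per kb (0.125 to 0.144), so the domains were 2.31 times as dense (2.10 to 2.55). Other KDM4B peaks occupied 30.6% of this flank sequence. The flank sequence outside them had 0.0913 midpoints per kb (0.0824 to 0.101), which brings the ratio to 3.40 (3.01 to 3.84). The inside exceeded the mean of both flanks in 356 single domains, was below it in 96 and equalled it in 151, of which 117 had no midpoint in either place. Narrower peaks showed a similar difference, with 0.298 inside and 0.130 beside them per kb.

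The step between inside and outside lay at the called edge. In the 500 bp just inside the edges there were 0.284 midpoints per kb (0.243 to 0.329), and in the 500 bp just outside there were 0.166 (0.135 to 0.202). From 500 to 1000 bp and from 1000 to 1500 bp inward the value was 0.348 (0.303 to 0.399) in both bins. Farther out, the 8 bins from 500 to 4500 bp outside lay between 0.119 and 0.153 with no steady trend, and the bin from 4500 to 5000 bp was the lowest at 0.0912 (0.0687 to 0.119).

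Along the length of the domains the H3K9me3 peaks were spread rather than gathered at the middle or the ends. In 10 equal bins the number per kb ran from 0.249 in the first bin to 0.382 in the fourth and stood at 0.305 in the last. The inner 8 bins had 0.319 per kb (0.296 to 0.342) and the outermost bin on each side 0.277 (0.237 to 0.323), a ratio of 1.15 (0.971 to 1.37). That interval includes equality. Strand is not defined for these peaks, so the lower first bin has no direction relative to a gene.

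**Figure D4:**
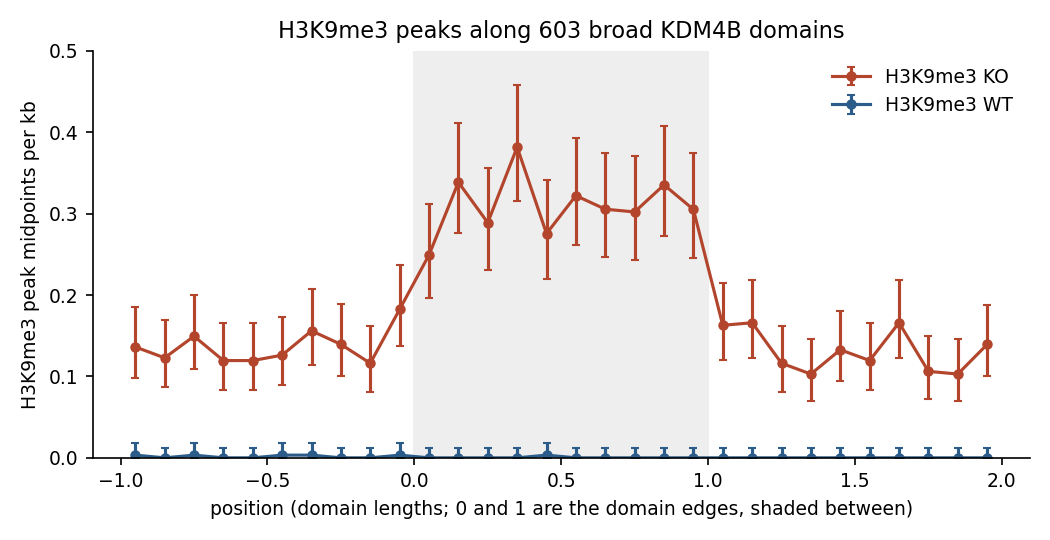
H3K9me3 peak midpoints per kb along the 603 broad domains, in 10 bins per domain (shaded) and 10 bins per flank of equal length, with 95% exact Poisson intervals; KO in red, WT in blue. KO values lie between 0.249 and 0.382 inside and between 0.103 and 0.182 outside, and WT values are at or near 0 throughout.

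H3K9me3 peaks inside broad domains were called as short, separate intervals. Their median width was 293 bp for the 935 centred in a broad domain, 301 bp for the 6300 in a narrower KDM4B peak and 251 bp for the 48071 in none. Peaks of 500 bp or more made up 15.1, 17.1 and 7.51% of these sets. Where a domain held several, neighbouring midpoints were a median of 908 bp apart, with an interquartile range of 558 to 1588 bp over 526 gaps. These distances are limited by the domain widths, and the median peak widths lie within the sheared fragment range of 200 to 500 bp. The calls were therefore separate and short, but a list without scores or depth cannot show whether the mark itself is interrupted. The coverage passed 30% of the sequence in 55 domains. The highest coverage was 63.8%, at chr7:26032762-26036118.

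The wider neighbourhoods of broad domains held more H3K9me3 peaks of KO cells than those of narrower peaks. Within 50 kb outside the domain there were 104.8 midpoints per Mb, against 83.3, 71.6, 65.9 and 67.1 per Mb around peaks of 2 kb to under 3 kb, 1 kb to under 2 kb, 500 bp to under 1 kb and under 500 bp. These surroundings include other KDM4B peaks, broad domains among them. An H3K9me3 peak near several KDM4B peaks was counted for each, and no intervals were computed. Yet the narrower KDM4B peaks near broad domains carried less of the mark. The 4937 narrower peaks within 50 kb of a broad domain had 0.241 midpoints per kb (0.225 to 0.257), and the 26477 farther away had 0.310 (0.301 to 0.318). Set against the nearby narrower peaks, the broad domains were 1.29 times as dense (1.17 to 1.42).

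The 185 domains without H3K9me3 in KO cells were narrower than the 418 with it, with medians of 3780 bp and 4149 bp. Narrow domains have less length in which to meet a peak, and per kb they did not hold fewer. Domains below the median width had 0.339 midpoints per kb (0.304 to 0.376), and the others 0.295 (0.272 to 0.320). The domains without the mark also lay in neighbourhoods with fewer H3K9me3 peaks. Within 50 kb outside, again with other KDM4B peaks included, there were 65.7 midpoints per Mb around domains without the mark and 122.2 around domains with it. No peak at all was found within that distance of 15.1% and 6.70% of them. Other KDM4B peaks within 10 kb were somewhat more numerous around domains without the mark, with a mean of 5.69 and a median of 5, against 4.77 and 4 around domains with it.

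The 252 clustered domains overlapped H3K9me3 of KO cells in 169 cases, or 67.1% (60.9 to 72.8%), and the 351 domains alone in 249, or 70.9% (65.9 to 75.6%). Clustered domains had the lower number per kb, with 0.282 midpoints (0.255 to 0.312) against 0.333 (0.306 to 0.362) for domains alone. The intervals for the number per kb overlap only slightly. Such overlap does not show equality, and the difference was not tested.

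Chromosomes differed in the content of their domains. The share of domains overlapping an H3K9me3 peak of KO cells was 100% on chromosome 12, where 14 of 14 did (76.8 to 100%), 86.4% on chromosome 7 (72.6 to 94.8%) and 85.1% on chromosome 10 (71.7 to 93.8%). It was 42.9% on chromosome 3 (21.8 to 66.0%), 52.4% on chromosome 9 (29.8 to 74.3%) and 52.5% on chromosome 6 (36.1 to 68.5%). Among the narrower peaks of chromosomes 12, 7 and 10 the share was 20.6, 24.7 and 22.2%. Among those of chromosomes 3, 9 and 6 it was 17.4, 23.2 and 18.98%. Shares of whole domains also depend on domain width, so numbers per kb are given as well. Midpoints per kb of domain ranged from 0.175 on chromosome 6 to 0.503 on chromosome 12 over the autosomes. Domains exceeded their flanks on 19 of 19 autosomes, and exceeded the narrower peaks of the same chromosome on 9 of 19. On chromosomes 7, 10 and 12 the interval of the domains lay above the value of the narrower peaks, with 0.416 (0.339 to 0.507) against 0.322, 0.484 (0.404 to 0.576) against 0.304 and 0.503 (0.354 to 0.693) against 0.288. On chromosomes 4 and 6 it lay below, with 0.211 (0.149 to 0.290) against 0.324 and 0.175 (0.125 to 0.240) against 0.266.

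None of the 8 broad domains on the X chromosome overlapped an H3K9me3 peak of KO cells, which allows a share of up to 37.5%. Over their 38.9 kb the count of 0 allows up to 0.0771 midpoints per kb. The 450 narrower peaks of the X had 0.0292 midpoints per kb, and 11 of them had an overlap. The domains alone are too few to separate from that value, and both lie under the lowest autosomal value of 0.175. H3K9me3 peaks of KO cells were few along the X in general. The span from the first to the last of its domains held 58 over 144910 kb, and the flanks of the domains had 0 midpoints. The low values are thus not particular to KDM4B peaks.

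**Figure D5:**
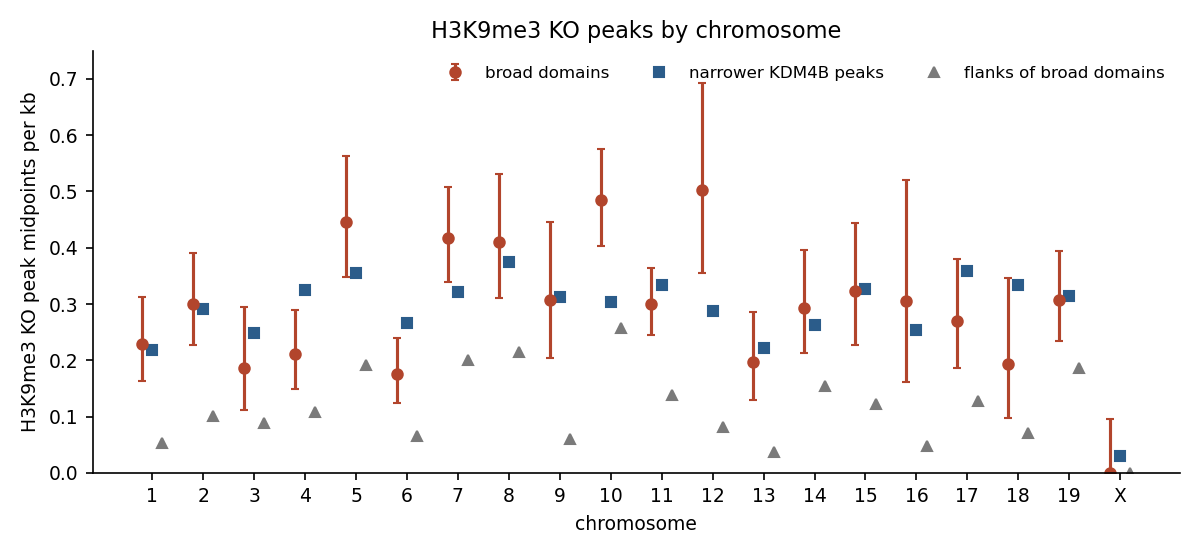
H3K9me3 KO peak midpoints per kb on each chromosome for broad domains (circles, with 95% exact Poisson intervals), narrower KDM4B peaks (squares) and the flanks of broad domains (triangles). Broad domains lie above their flanks on 19 of 19 autosomes, and both are at 0 on the X.

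The widest domains differed in H3K9me3 content. The 20 widest measured 11.3 to 29.3 kb and summed to 329 kb, and 18 of them overlapped the mark in KO cells. The widest, chr19:5821359-5850620, held 5 H3K9me3 peaks of KO cells that covered 4.78% of its 29.3 kb. Its flanks of the same length on either side held 15 midpoints together, so it was less dense than the mean of both flanks. A further domain of this group, chr19:5793708-5804996, lay in the same part of chromosome 19 with 1 peak over 11.3 kb and 4 midpoints in its flanks.

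Among these 20, the densest was chr10:79610386-79625388, with 10 peaks that covered 28.5% of its 15.0 kb. It was followed by chr2:44959116-44973244 and chr7:107641425-107656591, each with 7 peaks over 14.1 and 15.2 kb. The domains chr10:127023898-127043323, with 7 peaks over 19.4 kb, and chr17:34245955-34261324, with 6 over 15.4 kb, also carried the mark repeatedly. Both flanks together held 15 midpoints for chr10:127023898-127043323, 2 for chr17:34245955-34261324 and 3 for chr7:107641425-107656591. The first of these domains was no denser than its flanks. The flanks of chr2:44959116-44973244 held 0 midpoints, while those of chr10:79610386-79625388 held 18 on both sides together. The former had its H3K9me3 inside the domain, and the latter had many peaks beside it as well, on sides that were not counted apart.

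Other domains of this group carried little or none. No H3K9me3 peak of KO cells was found over the 24.3 kb of chr14:63741118-63765427 or the 16.5 kb of chr6:122536822-122553294. A single one was found in chr6:48985523-49004260, with 18.7 kb, in chr11:86389732-86401582, with 11.9 kb, and in chr13:5860031-5871441, with 11.4 kb. In chr1:180254442-180266830, with 12.4 kb, the 1 overlap was 12 bp long, at the domain's edge. Of the 7 not yet given, 3 held 5 peaks, 2 held 3 and 2 held 2 in KO cells. One of the first, chr10:59740042-59760358, spanned 20.3 kb.

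Ranking by number per kb favours narrow domains, since 1 peak adds more per kb to them. The domains with the most H3K9me3 per kb were narrower. The first was chr10:41993098-41998389, a domain of 5.29 kb with 7 peaks, or 1.32 midpoints per kb, and 1 midpoint in its flanks. It was followed by chr8:28087782-28090853 with 1.30, chr1:88337119-88340217 with 1.29, and chr15:38227805-38231750 and chr11:109332676-109335833 with 1.27 each. The next 5, with 1.18 to 1.25, lay on chromosomes 10, 11 and 13, with 3 on chromosome 10. Over the 603 domains the median was 0.281 per kb, with an interquartile range of 0 to 0.546, and 22 domains passed 1 per kb. The domain with the largest number of peaks, chosen after its value was seen, was chr5:143575232-143585534, with 11 over 10.3 kb and 2 midpoints in its flanks.

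The cluster with the most domains spanned chr10:126972094-127106221. It held 8 domains, which took up 36.0% of the 134 kb, and 47 narrower KDM4B peaks. Its domains overlapped 26 H3K9me3 peaks of KO cells, or 0.517 midpoints per kb, and 7 of the 8 had at least 1. The exception was chr10:126972094-126975832 at the lower end of the cluster, with 0 over 3.74 kb. Between 79 and 81 Mb on the same chromosome, 13 of 13 domains carried the mark, with 52 overlapping peaks and 0.730 midpoints per kb (0.540 to 0.965). Over all domains of chromosome 10 the share was 85.1%, with 0.484 midpoints per kb. The 13 domains belong to a run of 14 consecutive domains with the mark, between 67737739 and 80832218. Of the 286 narrower KDM4B peaks in that span 120 had an overlap, against 403 of 1814, or 22.2%, on the whole chromosome. The region was thus rich in such peaks outside the broad domains too.

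The next cluster by number, chr13:49282910-49420382, held 6 domains, of which 4 had the mark. Of the clusters with 5 domains, viewed after their values were known, chr13:63341404-63414820 had 33.1 kb of domain sequence and 0.0605 midpoints per kb, while chr14:31946761-31983869 had 29.2 kb and 0.446. These values rest on 2 and 13 midpoints and carry no interval. They lay below and above the pooled value of 0.310, and whether they differ from it was not tested.

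A stretch of chromosome 6, chosen after its values were seen, combined wide domains with absence of the mark. Between 122525561 and 123221454 lay 5 consecutive domains that summed to 47.7 kb, and 3 of them spanned 10 kb or more. None overlapped an H3K9me3 peak of KO cells. The whole stretch of 696 kb held 14 such peaks. Of its 44 narrower KDM4B peaks 4 had an overlap, against 309 of 1628 on the whole chromosome. That share was the lower one, but it rests on 4 peaks and the difference was not tested. Whether the domains held fewer peaks than the stretch around them was not tested. The 3 domains of 10 kb or more in this stretch and the chromosome 14 domain named above were the 4 of 29 such domains without the mark. On chromosome 19, in the longest run of domains with the mark, 16 consecutive domains between 3905037 and 9066962 each overlapped at least 1 peak. That span of 5162 kb held 656 H3K9me3 peaks of KO cells. Of its 283 narrower KDM4B peaks 110 had an overlap, against 274 of 1221, or 22.4%, on the whole chromosome. The run thus lay in a region rich in such peaks and is not particular to the domains.

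H3K9me3 peaks of WT cells were nearly absent from the broad domains. They overlapped 1 of 603, or 0.166% (0.00420 to 0.920%), against 0.0531% of all KDM4B peaks and 0.0509% (0.0291 to 0.0827%) of the narrower ones. Per kb there were 0.000332 midpoints in domains (8.4e-06 to 0.00185) and 0.000284 in narrower peaks (0.000104 to 0.000617). At this length of the WT list no difference between the width classes was detectable. The overlapping domain was chr19:61300451-61304679, where 2 WT peaks shared 251 bp with it. In KO cells the same domain of 4.23 kb overlapped 4 H3K9me3 peaks, which covered 43.7% of it. A WT peak lay within 10 kb of 4 domains.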

How the data were processed

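Per the submitters' processing notes, Bowtie, SAMtools, MACS for KDM4B and MACS2 for H3K9me3 were used, with builds mm9 and hg19. Per the labels, chromatin was sheared to 200 to 500 bp. Versions, thresholds, controls, pooling and any use of the yeast spike-in for these lists were not given in the sources used here. MACS2 2.1.4 made the WT list of total H3, per the file headers. The lists deposited by the authors and used here give chromosome, start and end of each peak with no score. The design text names KDM4B antibodies from 2 suppliers without assigning them. The 2 input samples were not analysed here.

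Starts were made 1-based. Peaks run past the final gene of the GRCm38.p6 table on 9 of 21 chromosomes (to 152508057 on chromosome 7), so that table is of another build. No gene was assigned, the planned counts at gene starts and by gene list were not run, and no sequence is printed. Shares carry Clopper-Pearson intervals, numbers per kb Poisson intervals and ratios exact conditional binomial intervals, and a count of 0 is given with the limit that 3 counts set. Neighbouring peaks are not independent, so these intervals are too narrow. H3K9me3 peaks were assigned by midpoint for numbers per kb and by 1 shared bp for overlaps. Overlaps and covered bp (Python 3.11.15, numpy 2.4.6, pandas 2.3.3, scipy 1.17.1) equalled those of bedtools 2.31.1 for each of the 32017 KDM4B peaks, and counting was tested on simulated data.

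Named regions are the 20 widest domains, the 10 with the most KO H3K9me3 midpoints per kb, those overlapping a WT H3K9me3 peak, the 5 on each side of the width limit and the cluster with the most domains; others were chosen after their values were seen. The width rule and comparisons were chosen with earlier results of these data known.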

Additional observations from a re-analysis of the deposited data

How the results depend on the processing

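No paired analysis was possible because each group has 1 library. The planned counts at gene starts were not run. Results kept within the interval of the main value are not listed.

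The share of domains overlapping H3K9me3 of KO cells was 58.0% for domains of at least 2 kb, 77.0% for at least 5 kb, 61.8% after merging KDM4B peaks within 1 kb, 57.5% with H3K9me3 peaks of at least median width, and 25.5% in the central 500 bp. Midpoints per kb were 0.281 for at least 5 kb, 0.243 after merging, 0.265 with 1 kb added on each side, 0.196 with H3K9me3 peaks of at least median width, and 0.281 as the median over domains. The covered share was 9.39, 8.57, 9.18 and 8.42% under the first 4 of these. The share of domains with H3K9me3 of WT cells was 0% for at least 5 kb and with H3K9me3 peaks of at least median width.

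The ratio of broad domains over narrower peaks changed side of 1. It was 0.935 for at least 5 kb, 0.779 after merging, 1.55 with 1 kb added on each side and 1.29 against narrower peaks within 50 kb; merging and adding 1 kb bring flank sequence into the intervals by construction. The ratio over flanks was 3.40 without other KDM4B peaks in the flanks. The median gap was 255 kb after merging, 271 kb for at least 2 kb and 3417 kb for at least 5 kb, because the number of domains differs. Leaving out each of 20 chromosomes in turn gave shares of 68.0 to 70.5% and 0.294 to 0.321 midpoints per kb. The central 500 bp, the median over domains, the nearby narrower peaks, the flank alternatives and the omitted chromosomes were chosen after seeing the data. Without depth, scores or replicates, weak peaks cannot be separated from threshold effects.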
